A study of Mus musculus with 19 samples.

Results

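The transcripts of 7 genes that mark mast cells were followed through tumours and normal skin of the mouse: Cpa3, Mcpt4, Cma1, Tpsb2, Tpsab1, Ms4a2 and Hdc. They were chosen by symbol, each symbol matched 1 row of the 34807-gene table, and all 7 passed the filter on low counts that left 32031 genes for testing. To ask how the population in which a skin tumour starts shapes its transcriptome, bulk poly(A) RNA-seq had been done on 15 cutaneous squamous cell carcinomas and 4 samples of normal skin, 1 library each. The tumours expressed BRAFV600E, an oncogenic kinase that keeps MAPK signalling active, after tamoxifen or 4-hydroxytamoxifen had released a Cre recombinase. Control of Cre lay with the Ivl promoter, which works in committed and differentiating keratinocytes (Ivl:BRAFV600E, n = 6), or with the promoters of Krt5 (K5:BRAFV600E, n = 5) and Krt14 (K14:BRAFV600E, n = 4), which work in basal keratinocytes. Normal skin was wild type for the oncogene (n = 4) and came from littermates per the methods of the study. All animals were female. The methods of the study give a C57BL/6J background and its reporting summary a mixed C57BL/6 background. Induction took place at 7 to 20 weeks of age as noted for the samples, a wider range than in the methods. The promoters restrict the oncogene to keratinocytes, so immune cells in the samples were not targeted by it. The body site of each library is not labelled. Per the study, lesions arose on the back in K5 and K14 mice but also on paws, ears and lips in Ivl mice. Tumours also appeared much later after induction in Ivl mice. Induction was with tamoxifen in Ivl mice and with 4-hydroxytamoxifen in K5 and K14 mice. These features and the population of origin cannot be told apart in a comparison of Ivl with K5 and K14 tumours. Nothing in the labels says which tumours shared an animal, so p-values measure the spread between these samples.

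Mast cells are tissue-resident cells of haematopoietic origin that mature under Kit signalling and are abundant in the dermis, around vessels, nerves and hair follicles. Their granules store proteases bound to heparin, together with histamine, and are released when antigen crosslinks IgE held by the high-affinity IgE receptor. Connective tissue mast cells, the type that populates skin, carry chymases, tryptases and a carboxypeptidase, whereas the mucosal type makes the chymases encoded by Mcpt1 and Mcpt2. In bulk samples, fewer mast cells and less RNA per mast cell cannot be told apart.

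The 4 genes below encode proteases and a receptor chain of mature mast cells, whose gene programme depends on the factor GATA2, and their proximal promoters are shown for the GATA words they hold. Each sequence holds the 200 bases before the RefSeq transcription start (GRCm38.p6), 5′ to 3′ on the minus strand on which all 4 genes lie. Capitals mark GATA words (AGATAA and the related word AGATAG, as well as TGATAA and its relative TGATAG, on either strand).
Cpa3, chr3:20242182-20242381: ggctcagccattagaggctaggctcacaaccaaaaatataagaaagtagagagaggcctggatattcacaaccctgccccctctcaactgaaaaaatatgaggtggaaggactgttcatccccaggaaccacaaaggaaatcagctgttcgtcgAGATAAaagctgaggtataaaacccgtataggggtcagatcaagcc
Mcpt4, chr14:56062311-56062510: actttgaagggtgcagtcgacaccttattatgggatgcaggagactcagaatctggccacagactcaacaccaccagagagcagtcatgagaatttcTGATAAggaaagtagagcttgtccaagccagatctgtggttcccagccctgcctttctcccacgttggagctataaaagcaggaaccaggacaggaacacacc
Cma1, chr14:55944676-55944875: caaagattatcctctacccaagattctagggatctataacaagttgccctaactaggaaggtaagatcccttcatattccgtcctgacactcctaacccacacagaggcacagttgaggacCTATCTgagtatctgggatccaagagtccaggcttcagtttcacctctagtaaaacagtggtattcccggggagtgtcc
Ms4a2, chr19:11623720-11623919: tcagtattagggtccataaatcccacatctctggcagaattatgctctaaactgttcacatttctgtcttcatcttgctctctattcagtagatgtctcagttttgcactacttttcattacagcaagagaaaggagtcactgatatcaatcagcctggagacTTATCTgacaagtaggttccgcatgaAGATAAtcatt
The match began 46 bases before the start in Cpa3 (position -46), at -103 in Mcpt4 and at -79 in Cma1, and Ms4a2 had matches at -37 and -11. The same window of Hdc held 0 matches. Of 32851 mouse promoters of this length, 21.4% held at least 1 GATA word. The word CATGTG, an E-box of the kind that the mast cell factor MITF binds, was searched on both strands too and had 0 matches in each of the 5 windows, whereas 9.756% of all promoters held it. These are matches of letters, not binding sites. Tpsb2 and Tpsab1, neighbours on chromosome 17, were not among the promoter sequences used here.

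Reads had been counted over the exons of whole genes, which in GRCm38 lie at chr3:20215620-20242181 (Cpa3), chr14:56059629-56062313 (Mcpt4), chr14:55941451-55944675 (Cma1), chr17:25366305-25369098 (Tpsb2), chr17:25343245-25345562 (Tpsab1), chr19:11615523-11623719 (Ms4a2) and chr2:126593667-126619299 (Hdc), all on the minus strand but Tpsb2. Of the stretches of 101 bases in their transcripts, the length of a read, 0 occurred in another gene, except that Ms4a2 shared 0.374% with Ms4a4b.

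Library totals lay between 45715309 and 72609771 counts. Levels are CPM, the counts of a gene per megacount of its library, after scaling by the trimmed mean of M values (TMM). The scaling factors were 1.43 to 1.66 in skin and 0.806 to 1.15 in tumours, and the median log2 difference of all genes moved from -0.46 to -1.13 in Ivl tumours and from -0.60 to -1.40 in K5/K14 tumours when library totals were used alone. The counts had been adjusted for a sequencing batch before deposit. Ivl tumours 1, 2 and 3 and K5 tumour 1 carry the trace of that step: for 96.6% of 13954 genes their mean level and that of the 15 remaining libraries were no more than 0.1 log2 apart, against 64.1% for the next of 3876 sets of 4. Results are therefore also given in the 15 libraries outside this set.

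The normal skin libraries did not form 1 group for these genes. The summed level of the 7 genes was 4.55 CPM in normal skin 1 and 4.67 CPM in normal skin 2, but 139 CPM in normal skin 3 and 166 CPM in normal skin 4. Skin 1 and 2 were low in markers of other dermal cells as well. The fibroblast list summed to 3400 and 893 CPM in skin 1 and 2 against 13665 and 18890 CPM in skin 3 and 4. The macrophage and monocyte list gave 196 and 122 CPM against 1198 and 1579 CPM, and the endothelial list 83.7 and 133 CPM against 434 and 499 CPM. Keratinocyte markers, at 8653 to 15159 CPM over the 4, differed less. The part of tissue make-up in the values of the mast cell genes was not tested. Skin 3 and 4 were also the most alike across 17977 protein-coding genes (Pearson r of log2 CPM 0.9865, across genes, which are not independent), followed by skin 1 and 3 (0.9661), skin 1 and 4 (0.9519), skin 2 and 3 (0.95), skin 1 and 2 (0.9454) and skin 2 and 4 (0.9382). Over all genes, skin 1 was thus closer to skin 3 and 4 than to skin 2. Every comparison with skin was run with all 4, without skin 1 and 2 and without skin 3 and 4. The last pair of fits was added after the values had been seen, and since the libraries stand apart in these same genes, they show how far a call rests on them and are no evidence for a direction.

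Cpa3 encodes carboxypeptidase A3, which trims peptides after a chymase has cut them. Its level was 0.593, 0.214, 35.5 and 40.2 CPM in normal skin 1 to 4. In the Ivl tumours it ran from 3.49 to 10.9 CPM (median 4.8). The K5 tumours 1 to 5 had 44.5, 3.72, 10.5, 18.3 and 5.36 CPM, and the K14 tumours 1 to 4 had 16.8, 2.72, 12 and 17.5 CPM. All 15 tumours lay above skin 1 and 2, and K5 tumour 1 alone exceeded skin 4.

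Cma1 encodes mMCP-5 and Mcpt4 encodes mMCP-4, the chymases of connective tissue mast cells, and both genes lie in the protease cluster on chromosome 14. Mcpt4 stood at 1.58, 1.30, 51.1 and 57.3 CPM in skin 1 to 4, and at 4.25 to 10.6 CPM (median 8.10) in Ivl tumours. In K5 tumours it had 68.9, 8.91, 24.1, 47.8 and 6.96 CPM, and in K14 tumours 38.1, 6.2, 12.8 and 21.4 CPM. Ivl tumours were thus a narrow, low group beside K5 and K14 tumours that spread over a wider range and overlapped them. Cma1 had the same order of libraries in skin, with 0.804, 0.731, 27.6 and 38.7 CPM. It lay between 2.16 and 9.98 CPM (median 4.60) in Ivl tumours, at 40.5, 4.13, 9.26, 21.9 and 2.18 CPM in K5 tumours, and at 20.7, 3.80, 11.7 and 16.4 CPM in K14 tumours.

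Tpsb2 encodes mMCP-6, the tryptase that connective tissue mast cells store as tetramers with heparin. Skin 1 to 4 had 0.422, 0.405, 19.2 and 23.9 CPM. The Ivl tumours had 4.99 to 12 CPM (median 5.40), the K5 tumours 45.6, 10.2, 18.1, 48.6 and 6.37 CPM, and the K14 tumours 23.8, 4.95, 19.5 and 21.5 CPM. K5 tumours 1 and 4 were above all skin libraries, and the Ivl tumours lay between the low and the high pair of skin libraries.

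Tpsab1 encodes the tryptase mMCP-7, and C57BL/6 mice carry a splice-site change in the gene that leaves them without the protease. Which allele these animals carry was not tested. Its transcript was close to absent from skin, with 2, 0, 27 and 8 counts in libraries 1 to 4, or 0.0264, 0, 0.253 and 0.0780 CPM. In Ivl tumours it reached 0.231 to 2.37 CPM (median 0.772, 15 to 101 counts). The K5 tumours had 4.05, 1.67, 2.01, 3.22 and 1.81 CPM and the K14 tumours 1.05, 0.922, 2.99 and 2.53 CPM. All 9 K5 and K14 tumours lay above all 4 skin libraries, and of the Ivl tumours only tumour 1 lay below skin 3.

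Ms4a2 encodes the beta chain of the IgE receptor, which amplifies its signal. It was low everywhere, with 0.461, 0.247, 2.31 and 2.09 CPM in skin 1 to 4 and 0.739 to 2.18 CPM (median 1.58) in Ivl tumours. K5 tumours had 3.99, 0.380, 1.33, 2.08 and 0.475 CPM and K14 tumours 3.28, 0.737, 2.71 and 1.98 CPM. The groups overlapped.

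Hdc encodes histidine decarboxylase, the enzyme that makes histamine, and is used by basophils and some myeloid cells besides mast cells. In skin 1 to 4 it had 0.659, 1.76, 2.80 and 3.71 CPM, a narrower spread than that of the proteases. Ivl tumours had 2.40 to 16.7 CPM (median 9.61), K5 tumours 4.70, 6.25, 12.6, 24.5 and 7.67 CPM, and K14 tumours 16.3, 1.18, 10.1 and 9.16 CPM. Apart from Ivl tumour 1 and K14 tumour 2, the tumours lay above all 4 skin libraries.

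**Figure D1:**
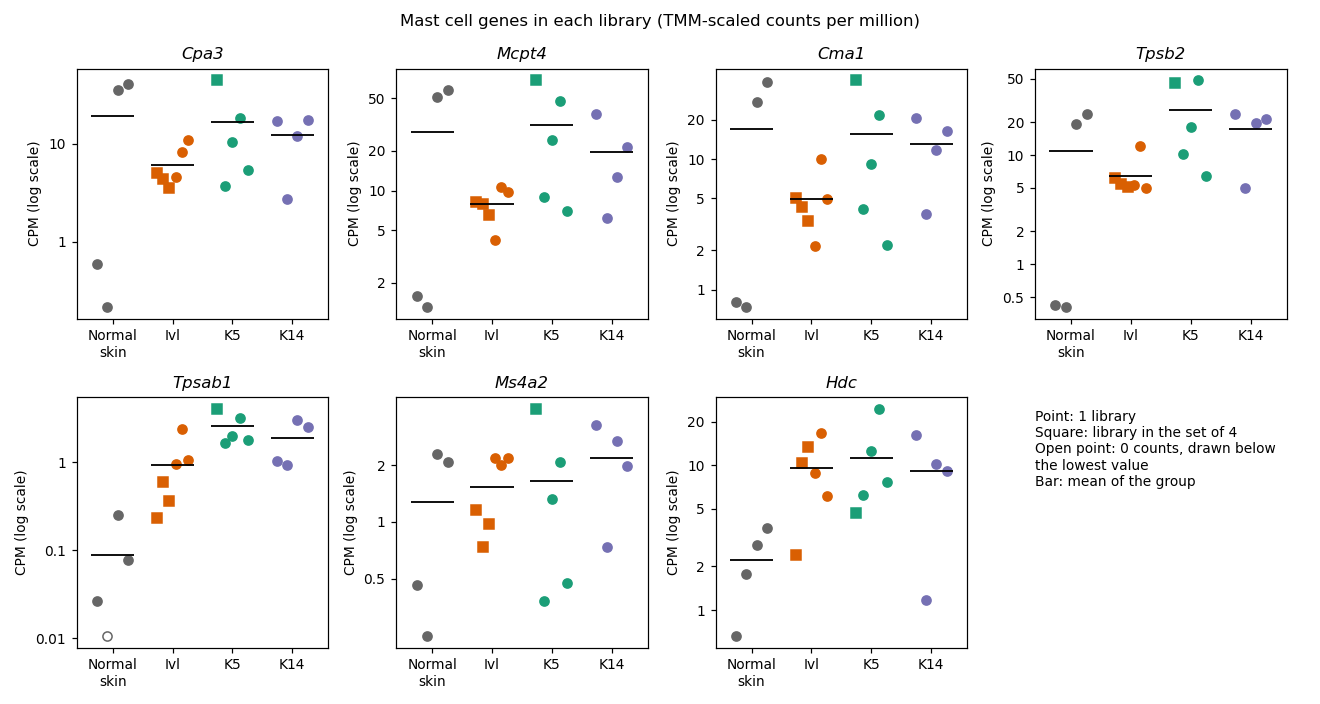
Level of each of the 7 mast cell genes in each library, in TMM-scaled CPM on log axes that differ between panels. Points are libraries, squares the 4 libraries with the batch trace, open points a count of 0 and bars group means. The normal skin libraries fall into a low and a high pair for Cpa3, Mcpt4, Cma1 and Tpsb2, with the tumours between or around them, whereas Tpsab1 is above skin in all 9 K5 and K14 tumours.

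Against normal skin, Tpsab1 and Hdc were higher in both kinds of tumour, and the other 5 genes did not pass the test in either with TMM scaling and all libraries. As the study did, K5 and K14 tumours were merged (n = 9). Tests are edgeR quasi-likelihood tests with Benjamini-Hochberg adjustment over all 32031 genes, called at an adjusted p under 0.05. Tpsab1 was higher by 3.31 ± 0.82 on the log2 scale (SE) in Ivl tumours (edgeR adjusted p = 0.0040) and by 4.59 ± 0.86 in K5/K14 tumours (edgeR adjusted p = 1.96e-04), or 9.90-fold and 24.1-fold. Hdc was higher by 2.1 ± 0.66 (edgeR adjusted p = 0.0198) and by 2.20 ± 0.64 (edgeR adjusted p = 0.0070), or 4.30-fold and 4.59-fold. These 2 of 7 genes called stand beside 35.9% of all genes called in the Ivl comparison (20.4% higher, 15.5% lower) and 62.2% in the K5/K14 comparison (23.2% higher, 38.9% lower). With library totals in place of TMM, 2868 genes were higher and 15460 lower in Ivl tumours, and 3239 higher and 20668 lower in K5/K14 tumours. The median log2 difference of the 7 was -0.76 in Ivl tumours, where that of all genes was -0.46, and 0.56 in K5/K14 tumours, where that of all genes was -0.60. The 2 comparisons share their skin libraries.

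The other 5 genes were not called in either comparison, and of them Mcpt4 in Ivl tumours had an unadjusted p under 0.05. In Ivl tumours the log2 difference was -1.66 ± 0.97 for Cpa3 (edgeR adjusted p = 0.173), -1.82 ± 0.86 for Mcpt4 (0.102), -1.78 ± 0.91 for Cma1 (0.125), -0.76 ± 0.86 for Tpsb2 (0.469) and 0.27 ± 0.65 for Ms4a2 (0.743). In K5/K14 tumours it was -0.39 ± 0.90 for Cpa3 (edgeR adjusted p = 0.717), -0.09 ± 0.80 for Mcpt4 (0.929), -0.22 ± 0.85 for Cma1 (0.827), 1.01 ± 0.85 for Tpsb2 (0.301) and 0.56 ± 0.62 for Ms4a2 (0.433). Calls in Ivl tumours depended on the tool and the scaling. DESeq2, the tool of the study, called Mcpt4 lower there (-1.93 ± 0.80, DESeq2 adjusted p = 0.0431) beside Tpsab1 and Hdc higher. With library totals alone edgeR called Cpa3 (-2.35 ± 0.96, adjusted p = 0.0451), Mcpt4 (-2.47 ± 0.86, 0.0238) and Cma1 (-2.44 ± 0.91, 0.0310) lower and Tpsab1 higher, and Hdc was not called (1.46 ± 0.65, 0.0614), while in K5/K14 tumours Tpsab1 and Hdc were called as before.

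The answer for these genes turned on which skin libraries were used. Without skin 3 and 4, all 7 genes were called higher in K5/K14 tumours, from 2.39 ± 0.83 for Ms4a2 to 7.23 ± 1.2 for Tpsab1 on the log2 scale (edgeR adjusted p 0.0230 to 1.97e-04). In that fit 20.5% of all genes were called higher and 32.9% lower in K5/K14 tumours, and 17% higher and 11.1% lower in Ivl tumours. In the same fit Cpa3 was higher by 3.87 ± 1.02 in Ivl tumours (edgeR adjusted p = 0.0097), and Tpsb2 by 3.93 ± 0.87 (edgeR adjusted p = 0.0031). Without skin 1 and 2, Cpa3 was lower by a log2 difference of -2.65 ± 0.69 in Ivl tumours (edgeR adjusted p = 0.0105), Mcpt4 by -2.78 ± 0.67 (0.0066), Cma1 by -2.75 ± 0.75 (0.0134) and Tpsb2 by -1.73 ± 0.62 (0.0492). In that fit 17% of all genes were called higher and 7.79% lower in Ivl tumours, and 20.2% higher and 24.6% lower in K5/K14 tumours. Hdc was then 1.56 ± 0.82 in Ivl tumours (edgeR adjusted p = 0.180) and 1.66 ± 0.81 in K5/K14 tumours (0.0999), without a call. Tpsab1 stayed called higher under both choices, by 2.45 ± 0.83 and 3.75 ± 0.88 without skin 1 and 2 and by 5.92 ± 1.15 and 7.23 ± 1.2 without skin 3 and 4. Leaving out skin 3 alone moved the Tpsab1 difference to 4.58 in Ivl tumours and 5.89 in K5/K14 tumours. Hdc lost its call in Ivl tumours without skin 1 (1.79, edgeR adjusted p = 0.0573) and without skin 2 (2.0, 0.0552), and Mcpt4 gained one there without skin 1 (-2.21, 0.0464) or skin 2 (-2.22, 0.0443).

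Within the 15 libraries outside the batch set, the same genes, Tpsab1 and Hdc, were called. Tpsab1 was higher by 3.95 ± 0.79 in the 3 Ivl tumours left (edgeR adjusted p = 7.58e-04) and by 4.43 ± 0.75 in the 8 K5/K14 tumours left (1.18e-04). Hdc was higher by 2.23 ± 0.73 (edgeR adjusted p = 0.0195) and 2.29 ± 0.65 (0.0070). Of all genes, 54.8% were called in the Ivl comparison of these libraries (22.2% higher) and 66.1% in the K5/K14 comparison (23.9% higher).

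**Figure D2:**
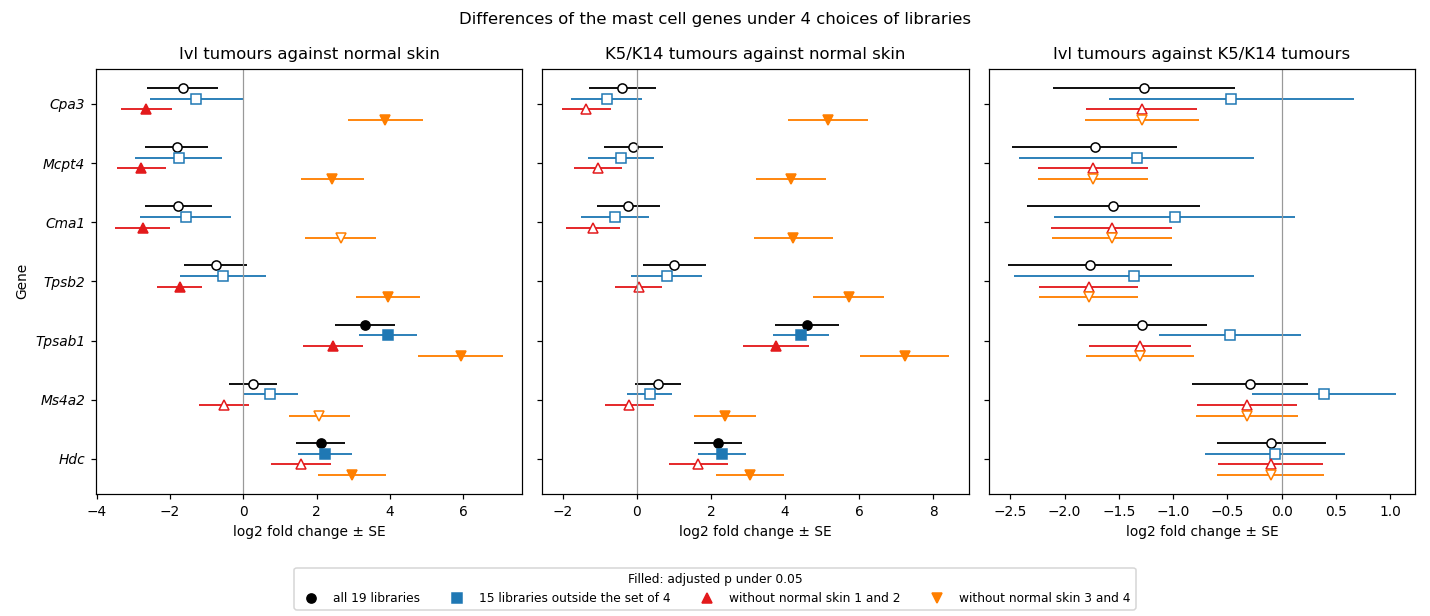
Log2 fold change with its standard error for the 7 mast cell genes in 3 comparisons, each fitted with all 19 libraries, with the 15 outside the batch set, without normal skin 1 and 2 and without normal skin 3 and 4. Filled symbols have an adjusted p under 0.05. Tpsab1 is filled in all fits against skin, the proteases Cpa3, Mcpt4, Cma1 and Tpsb2 change sign with the skin libraries in the Ivl comparison, and no gene is filled between the tumour groups.

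Between Ivl and K5/K14 tumours, a comparison in which skin serves only for the estimate of the spread, 0 of the 7 genes were called with edgeR or with DESeq2, beside 2.36% of all genes, and 3 had an unadjusted p under 0.05. All 7 fitted differences were below 0. They were -1.77 ± 0.75 for Tpsb2 (edgeR adjusted p = 0.187), -1.72 ± 0.76 for Mcpt4 (0.200), -1.55 ± 0.79 for Cma1 (0.274), -1.28 ± 0.59 for Tpsab1 (0.220), -1.27 ± 0.84 for Cpa3 (0.410), -0.29 ± 0.54 for Ms4a2 (0.807) and -0.09 ± 0.50 for Hdc (0.963). The median of the 7 was -1.28 and that of all genes 0.11. The estimate of the spread depended on the skin libraries. Without skin 1 and 2, Tpsb2 was -1.78 ± 0.46 (edgeR adjusted p = 0.0503) and Mcpt4 -1.74 ± 0.51 (0.0758). Without skin 3 and 4, Tpsb2 was -1.78 ± 0.46 (edgeR adjusted p = 0.0542) and Mcpt4 -1.74 ± 0.50 (0.0802). None of the 7 was called in either fit, beside 787 and 544 of all 32031 genes. Hdc stayed at -0.10 in both. In the 15 libraries outside the batch set the values lay between -1.36 ± 1.11 for Tpsb2 and 0.39 ± 0.66 for Ms4a2, with the smallest adjusted p at 0.713 and 0.406% of all genes called. Without K5 tumour 1 the Cpa3 value was -0.84 (edgeR adjusted p = 0.604). Between K5 and K14 tumours 0 of 7 were called with edgeR or DESeq2 and 0 had an unadjusted p under 0.05, with values from -0.39 ± 0.68 for Ms4a2 to 0.68 ± 0.93 for Mcpt4. Here 0% of all 32031 genes were called (1945 had an unadjusted p under 0.05, and DESeq2 called 201), and 0.0531% in the 15 libraries.

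Tumours high in one of Cpa3, Mcpt4, Cma1 and Tpsb2 tended to be high in the others, with pairwise r of log2 CPM from 0.86 to 0.94 over the 15 tumours, as a description. Hdc followed the other 6 genes less closely, with r from 0.31 to 0.43 (0.52 to 0.74 over the 11 tumours outside the batch set), and Tpsab1 and Ms4a2 had r = 0.37 (0.10 over the 11). Of the 15 tumours, K5 tumour 1 ranked in the top 3 for 6 of the 7 genes and K5 tumour 4 for 6 of 7, followed by K14 tumour 1 for 5 of 7. K5 tumour 1 was the highest of all tumours for 5 genes (Cpa3, Mcpt4, Cma1, Tpsab1 and Ms4a2) and K5 tumour 4 for Tpsb2 and Hdc. For Hdc, K5 tumour 1 was among the lowest 3 (4.70 CPM). Ivl tumour 3 and K14 tumour 2 ranked in the bottom 3 for 5 of 7 each. K5 tumour 1 belongs to the set with the batch trace, so its high values and the adjustment cannot be told apart.

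The tryptase Tpsb2 took a larger part of the granule protease transcripts in each tumour than in any skin library, whatever their total. Levels of different genes were compared per kilobase of annotated exon, and each gene was given as a share of the sum of Mcpt4, Cma1, Cpa3, Tpsb2 and Tpsab1 in its library. Tpsb2 took 9.34%, 11.3%, 11.2% and 11.6% in skin 1 to 4, although the counts behind these shares went from 236 and 260 in skin 2 and 1 to 14258 and 16422 in skin 3 and 4. In tumours it took 20.6% ± 4.5 in Ivl (SD, n = 6), 24.6% ± 4.7 in K5 (SD, n = 5) and 22.6% ± 3.9 in K14 (SD, n = 4). The lowest tumour, Ivl tumour 6 with 12.9%, lay above the highest skin library. Mcpt4 was the largest share in every skin library, with 46.5% ± 5.8 (SD, n = 4), and had 36% ± 5.0 in Ivl, 39.7% ± 2.7 in K5 and 35.0% ± 7.4 in K14 tumours, with overlap between groups. Cma1 went from 26.8% ± 2.6 in skin to 17.8% ± 4.0 in K5 tumours and 21.6% ± 4.2 in Ivl tumours. All 5 K5 tumours (12% to 23.3%) lay below the lowest skin library (23.6%), whereas the Ivl tumours (15.7% to 28.0%) overlapped skin, as did the K14 tumours (23.7% to 24.8%). Cpa3 kept a mean of 15.3% to 19.8% in the 4 groups. Tpsab1 took 0.147% ± 0.204 in skin and a mean of 2.08% to 2.70% in the tumour groups. These shares are a description, with no test.

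**Figure D3:**
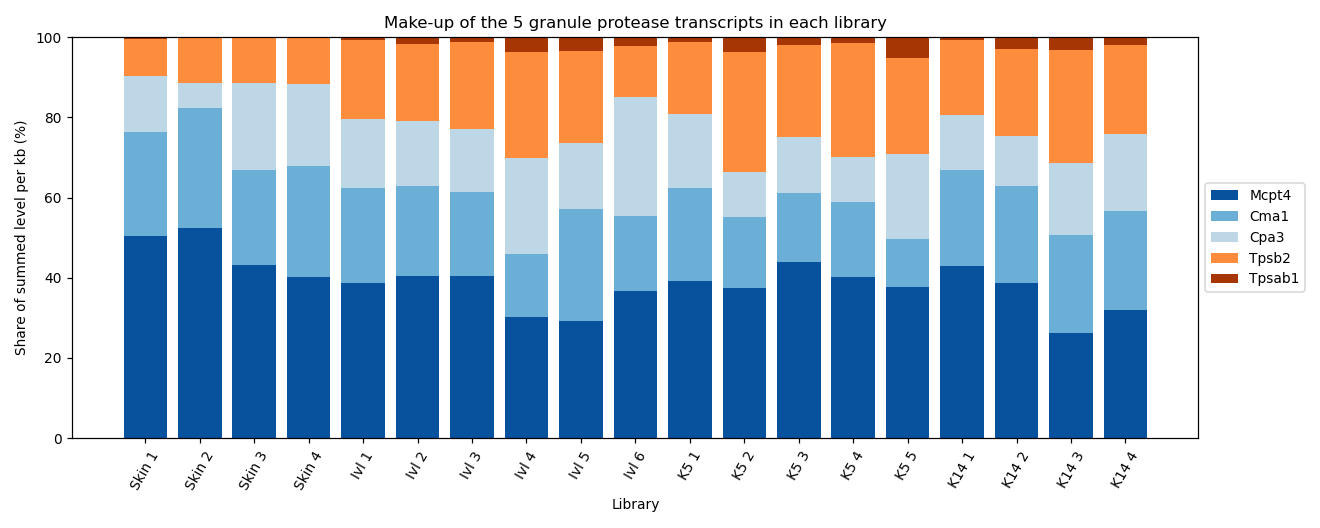
Stacked share of Mcpt4, Cma1, Cpa3, Tpsb2 and Tpsab1 in their summed level per kilobase of exon, in percent, for each of the 19 libraries. The tryptases Tpsb2 and Tpsab1 (orange and brown) take 9.34% to 11.6% and up to 0.444% in the skin libraries, and 12.9% to 29.8% and 0.571% to 5.20% in the tumours.

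Per kilobase, the mean level in skin fell in the order Mcpt4 (25.1 CPM per kb), Cma1 (15.6), Cpa3 (12.6), Tpsb2 (6.88), Ms4a2 (0.453), Hdc (0.350) and Tpsab1 (0.0427). In K5/K14 tumours the order was Mcpt4 (23.6 CPM per kb), Tpsb2 (13.8), Cma1 (13.3), Cpa3 (9.63), Hdc (1.61), Tpsab1 (1.07) and Ms4a2 (0.670), and in Ivl tumours Mcpt4 (7.14), Cma1 (4.54), Tpsb2 (4.07), Cpa3 (4.01), Hdc (1.51), Ms4a2 (0.548) and Tpsab1 (0.443). For Mcpt4, Cma1, Tpsb2 and Cpa3 the SD of these means was 1.70 to 2.46 CPM per kb in Ivl tumours and larger in the other groups, and neighbours among the 4 did not differ beyond their spread. In each of the 15 tumours, and in the skin libraries other than skin 2, the 4 stood above Hdc, Ms4a2 and Tpsab1.

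Mcpt1 and Mcpt2, the chymases of mucosal mast cells, were detected in tumours and not in skin. Both had 0 counts in all 4 skin libraries, which allows up to 3 counts per library. Mcpt2 had 8.39, 2.33, 3.93, 6.32 and 7.93 CPM in K5 tumours 1 to 5, 0.845, 0.161, 2.20 and 5.95 CPM in K14 tumours, and 0 to 2.0 CPM (median 0.372) in Ivl tumours. Set against 3 counts per skin library, Mcpt2 in K5/K14 tumours was at least 129-fold higher, and in Ivl tumours at least 21.6-fold higher (edgeR adjusted p = 1.82e-04 and 0.0022). The Ivl bound rests in part on Ivl tumour 4, without which it was 13.6-fold. Mcpt1 had 6.12, 0.253, 0.519, 1.66 and 7.02 CPM in K5 tumours and 0.0603, 0.0230, 0.120 and 3.59 CPM in K14 tumours, at least 65.9-fold higher over the 9 (edgeR adjusted p = 0.0020), although 2 of the 9 had no more than 3 counts. In Ivl tumours Mcpt1 exceeded 3 counts in 1 of 6 libraries and was not called (edgeR adjusted p = 0.155). The calls of Mcpt2 in both comparisons and of Mcpt1 in K5/K14 tumours held in each of the 19 fits that left out 1 library, without skin 1 and 2, and without skin 3 and 4. Neither gene shares a read-length stretch with another annotated transcript.

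Of the 29 other mast cell genes in the list, 6 rose, 4 fell and 19 were not called in Ivl tumours, and 9 rose, 7 fell and 13 were not called in K5/K14 tumours, with list medians of -0.09 and 0.02 on the log2 scale. Of all genes, 20.4% were called higher and 15.5% lower in Ivl tumours, and 23.2% and 38.9% in K5/K14 tumours. The counts of this list in Ivl tumours were near these shares, and the counts of the lists that follow stand beside the same shares. With library totals alone 3 of the 29 rose and 13 fell in Ivl tumours, and 8 rose and 14 fell in K5/K14 tumours. Among those that rose were Fcer1a, Tph1, Hpgds and Cyp11a1. Fcer1a, the IgE-binding chain of the receptor, had 0, 0, 0.543 and 0.312 CPM in skin 1 to 4 and 0.899 to 6.45 CPM (median 2.94) in K5/K14 tumours, a log2 difference of 3.81 ± 1.05 (edgeR adjusted p = 0.0046). In Ivl tumours its difference was 2.62 ± 1.01 (edgeR adjusted p = 0.0497), a call that was lost in 15 of the 19 fits without 1 library. Tph1, which starts the synthesis of serotonin, rose from 0.0264 to 0.609 CPM in skin to 1.22 to 4.97 CPM in K5/K14 tumours (3.26 ± 0.65, edgeR adjusted p = 3.53e-04) and to 0.599 to 2.86 CPM in Ivl tumours (2.32 ± 0.63, 0.0081). Without skin 1 and 2 the Tph1 value in Ivl tumours was 1.53 (edgeR adjusted p = 0.0703) and the Fcer1a value in K5/K14 tumours 2.85 (0.0205).

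Of the same list, Hpgds, the haematopoietic prostaglandin D synthase, stood at 6.68 to 27.6 CPM in skin and 33.4 to 139 CPM in K5/K14 tumours (2.49 ± 0.52, edgeR adjusted p = 6.45e-04). It had 7.22 to 51.3 CPM in Ivl tumours and was the 1 gene of the list called between the tumour groups, where it was 3.2-fold lower in Ivl (edgeR adjusted p = 0.0445). In the 15 libraries that log2 difference was -1.56 ± 0.63 (edgeR adjusted p = 0.369). Cyp11a1, a steroid-synthesis enzyme also found in mast cells, differed by 2.27 ± 0.54 in K5/K14 tumours (edgeR adjusted p = 0.0015) and 1.42 ± 0.54 in Ivl tumours (0.0446, lost in 8 of 19 fits without 1 library). Rab27b, a GTPase of granule secretion that other secretory cells use, rose by 1.55 ± 0.20 and 1.66 ± 0.21 in K5/K14 and Ivl tumours, and Ptgs1, cyclooxygenase 1, by 0.90 ± 0.23 and 0.74 ± 0.24. With library totals alone Ptgs1 was not called in either.

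The share of the list that fell was no larger than that of all genes in either comparison. Among the genes that fell were receptors and transporters that mature skin mast cells use. Mean Slc18a2 was 5.66 CPM in skin 1 and 2 and 4.16 CPM in skin 3 and 4, unlike the proteases. The same means were 4.12 and 2.98 CPM for Mrgprb2 and 25.6 and 18.1 CPM for Kit. The part of mast cells in the levels of these genes was not tested. Mrgprb2, the receptor for basic secretagogues, had 2.58, 5.67, 3.17 and 2.80 CPM in skin 1 to 4, an order unlike that of the proteases. It had 0.505 to 0.905 CPM in Ivl tumours (-2.43 ± 0.64, edgeR adjusted p = 0.0064), below all 4 skin libraries, and 0.253 to 5.64 CPM in K5/K14 tumours (-1.54 ± 0.57, 0.0248), where K5 tumour 1 alone lay within the skin range. That call was lost without skin 2, with values of -2.42 to -1.21 over the fits without 1 library. Without skin 1 and 2 the Ivl value was -2.18 (edgeR adjusted p = 0.0464) and the K5/K14 value -1.27 (0.164). Slc18a2, the vesicular monoamine transporter that loads histamine and serotonin into granules, went from 3.88 to 6.39 CPM in skin to 1.91 to 2.94 CPM in K5/K14 tumours (-1.07 ± 0.25, edgeR adjusted p = 0.0012) and was not called in Ivl tumours (-0.60 ± 0.27, 0.0864). Kit, the receptor for stem cell factor, had 44.2, 7.00, 22.5 and 13.7 CPM in skin and 1.66 to 20.5 CPM in tumours. It was lower by a log2 difference of -1.32 ± 0.50 in K5/K14 tumours (edgeR adjusted p = 0.0277) and -1.47 ± 0.55 in Ivl tumours (0.0438). Melanocytes also use Kit, the melanocyte list summed to 354 CPM in skin 1 against 26.6 to 98.8 CPM in the other skin libraries, and its part was not tested. The Kit calls were lost in 2 and in 11 of the 19 fits without 1 library.

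Mitf and Alox5 also fell in K5/K14 tumours, with log2 differences of -2.12 ± 0.54 and -1.58 ± 0.42, as did Slc45a3 with -0.92 ± 0.34 and Slc6a4, the serotonin transporter, with -0.75 ± 0.29 (edgeR adjusted p 0.0028 to 0.0313). Without skin 3 and 4 the adjusted p was 0.368 for Alox5, 0.334 for Slc45a3 and 0.130 for Slc6a4. The Slc45a3 call was also lost without skin 4 alone, and the Slc6a4 call without skin 2, 3 or 4. Unlike the proteases, Mitf differed little between skin 1 and 2 (mean 26.6 CPM) and skin 3 and 4 (28.6 CPM), as did Slc6a4 (9.05 and 9.64 CPM). Alox5 (4.19 and 13.2 CPM) and Slc45a3 (10.8 and 18.2 CPM) differed more. The part of mast cells in the levels of these genes was not tested. Fcer1g, Mrgprb1, Gata2, Ltc4s, Ndst2, Srgn and Il1rl1 were not called in either comparison. Their log2 differences in K5/K14 tumours were -0.83 to 0.42.

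**Figure D4:**
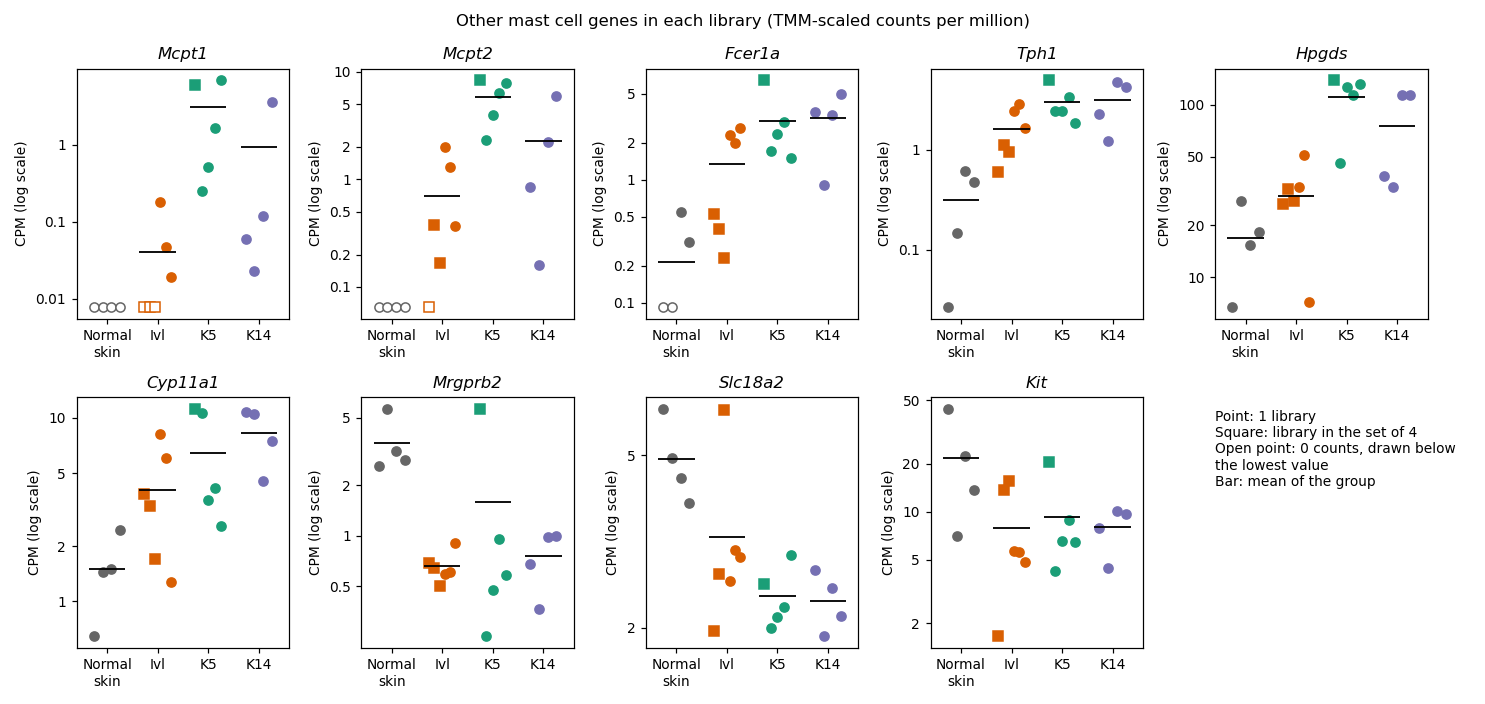
Level of 9 other mast cell genes in each library, in TMM-scaled CPM on log axes that differ between panels, with symbols as in the plot of the 7 genes. Mcpt1 and Mcpt2 have 0 counts in all 4 skin libraries. Mcpt2 exceeds 3 counts in all 9 K5 and K14 tumours and Mcpt1 in 7 of the 9. Mrgprb2 lies at 0.505 to 0.905 CPM in Ivl tumours against 2.58 to 5.67 CPM in skin.

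Of 18 genes of IgE receptor signalling, 2 rose and 2 fell in Ivl tumours, and 4 rose and 4 fell in K5/K14 tumours, with medians of -0.21 and -0.08. None of these counts exceeded the shares over all genes given above. The balance depended on the scaling: with library totals alone 0 rose and 12 fell in Ivl tumours, and 1 rose and 14 fell in K5/K14 tumours. Syk and Btk, kinases of the pathway that other immune cells share, had differences of -1.11 ± 0.35 and -1.11 ± 0.43 in K5/K14 tumours (edgeR adjusted p = 0.0102 and 0.0306), and both calls were lost without skin 3 and without skin 4. Stxbp2, a protein of granule fusion, had 0.73 ± 0.09 (edgeR adjusted p = 2.73e-06) but -0.08 with library totals alone.

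Among 15 measured factors that act on mast cell growth, survival or recruitment, 5 rose and 0 fell in Ivl tumours, and 5 rose and 2 fell in K5/K14 tumours (medians 0.02 and -0.15). Scaled by library totals, 3 rose and 2 fell, and 4 rose and 6 fell. Il33, an alarmin that activates mast cells through its receptor Il1rl1, had 13.2 to 44.3 CPM in skin, 58.3 to 314 CPM in Ivl tumours and 81.3 to 382 CPM in K5/K14 tumours. Both tumour groups lay above all skin libraries and overlapped each other. Their differences from skin were 2.87 ± 0.59 and 3.02 ± 0.57 on the log2 scale (edgeR adjusted p = 9.05e-04 and 2.84e-04). Tslp, an epithelial cytokine, had 0.105 to 0.974 CPM in skin, 0.982 to 32.0 CPM in Ivl tumours and 17.4 to 289 CPM in K5/K14 tumours (4.40 ± 1.14 and 7.45 ± 1.31, edgeR adjusted p = 0.0066 and 1.60e-04), and without skin 1 and 2 the Ivl value was 3.69 (edgeR adjusted p = 0.0848). Kitl, the ligand of Kit, and the chemokine Cxcl12 were lower in K5/K14 tumours, by log2 differences of -0.73 ± 0.28 and -3.21 ± 0.86 (edgeR adjusted p = 0.0277 and 0.0043). The Kitl call was lost without skin 1 or skin 3.

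Of 13 genes for mediator targets and histamine handling, 0 rose and 2 fell in Ivl tumours, and 0 rose and 5 fell in K5/K14 tumours (medians -0.66 and -0.94). These counts did not exceed the shares over all genes. By library totals 6 and 11 fell. Cysltr1, a leukotriene receptor, differed by -2.0 ± 0.44, and Edn1, endothelin 1, a peptide that mast cell proteases degrade, by -1.96 ± 0.47 in K5/K14 tumours (edgeR adjusted p = 8.65e-04 and 0.0016). Their values in Ivl tumours, -1.08 ± 0.49 and -0.90 ± 0.52, did not pass. F2rl1, the receptor that tryptase can cleave, and Cysltr2 were at -0.11 ± 0.23 and 0.05 ± 0.50 in K5/K14 tumours.

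Neutrophil markers rose as a list, and basophil and eosinophil markers did not. Of 12 neutrophil markers, 6 rose and 1 fell in Ivl tumours, and 7 rose and 1 fell in K5/K14 tumours. The list summed to 11.7 to 54.4 CPM in skin, 109.5 to 6585 CPM in Ivl, 2837 to 6699 CPM in K5 and 1667 to 4445 CPM in K14 tumours. Most of it was S100a8 and S100a9, which activated keratinocytes also make. The other 10 markers summed to 3.42 to 30.9 CPM in skin, 13 to 104 CPM in Ivl, 130 to 393 CPM in K5 and 95.2 to 495 CPM in K14 tumours, and Ly6g had 0 counts in every skin library. Of 12 basophil and eosinophil markers 1 rose and 2 fell in Ivl tumours and 1 rose and 0 fell in K5/K14 tumours. By library totals 4 and 2 of them fell, and 1 rose in each. The list median was -1.15 in Ivl and -0.16 in K5/K14 tumours. Their sum was 2.60 to 29.3 CPM in skin, 1.79 to 16.3 CPM in Ivl, 1.97 to 14.5 CPM in K5 and 1.89 to 16.0 CPM in K14 tumours. Mcpt8, the basophil protease, was the marker that rose, with 0 to 0.0937 CPM in skin and 0.281 to 5.21 CPM in K5/K14 tumours (4.76 ± 1.38, edgeR adjusted p = 0.0066). It has a mean under 1 CPM and is named after its values were seen. Of the neutrophil markers, Csf3r and Retnlg were not called in K5/K14 tumours (edgeR adjusted p = 0.233 and 0.497). K5 tumour 1 had the highest neutrophil sum of all libraries, 6699 CPM, and the lowest Hdc level of the K5 tumours, 4.70 CPM. The part of neutrophils and basophils in the Hdc result was not tested.

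The genes most like the 7 were sought among 13723 protein-coding genes with a mean of at least 1 CPM, by Pearson's r with the mean standardised log2 CPM of the members, as a description. Over all 19 libraries they were Cd68 (r = 0.920), Lgmn (0.912), Gnai2 (0.901), Ctsb (0.896), Pla2g7 (0.895), Pla1a (0.881), Fxyd5 (0.877), Fcna (0.873), Ccl12 (0.873) and Ms4a4a (0.873). Over the 15 tumours they were Tubb5 (r = 0.853), Mrgprb1 (0.848), Rph3al (0.807), Cd68 (0.802), Tph1 (0.800), Tmem104 (0.792), Gnai2 (0.791), Lgmn (0.788), Fcer1a (0.780) and S1pr3 (0.780). Mrgprb1, Tph1 and Fcer1a belong to the list of other mast cell genes, and Cd68 to that of macrophage and monocyte markers. The rest belong to none of the lists used here. In both lists of 10 stand 3 names (Cd68, Gnai2 and Lgmn). Over the 11 tumours outside the batch set, 0 of the 10 most alike genes were shared with either list. The libraries share their scaling and, in skin, the low and the high pair described above.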

How the data were processed

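Poly(A) RNA from 6 Ivl, 5 K5 and 4 K14 tumours and 4 normal skin samples was sequenced strand-specifically as paired reads of 101 bases. Per the study and the submitters' processing notes, reads were trimmed with Trim Galore, aligned with HISAT2 2.1.0 to GRCm38 (Ensembl release 100) and counted with featureCounts (Subread 1.6.3). The values the authors deposited are estimated counts: the read counts after adjustment for a sequencing batch with ComBat-seq, already whole numbers. The study gives batches of 4 and 15 libraries, the sizes of the set with the trace and of the rest. The labels do not say which libraries formed a batch, and whether the groups were given to the adjustment is not stated. One made with the groups known can narrow the spread that p-values rest on. One made without them can move the differences between groups. The 4 libraries with the trace hold no skin, yet for 96.6% of genes their mean was close to that of the 15 others, which include skin. Fitted differences therefore carry this limit too, above all those that use these 4 libraries. In Ivl tumours against skin, 11515 genes were called with them and 17563 in the 15 libraries outside the set. A true count test assumes unadjusted counts, so p-values carry this limit.

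A gene was tested when any library held 5 or more of its counts (32031 of 34807), as in the study, which used DESeq2. Here edgeR 4.0.16 (R 4.3.3) quasi-likelihood tests with TMM scaling and robust dispersion were fitted over all 19 libraries, with Benjamini-Hochberg adjustment over all genes tested and a threshold of 0.05. Ivl, merged K5/K14 and normal skin formed 3 groups, and a fit with 4 groups compared K5 with K14. The log2 CPM values used for correlations carry a prior count of 2. The fitted log2 differences were not given this prior, so those of genes near 0 counts are not shrunk by it. GENCODE M21 (GRCm38) gave positions and exon lengths for 34694 genes. RefSeq promoter sequences (GRCm38.p6) matched 5 of the 7 members.

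The members and lists were chosen with earlier results of these data known. Named were all 7 members, other mast cell genes with a mean of at least 1 CPM or without counts, and from each further list at most 4 genes, the 2 highest and 2 lowest by K5/K14 difference at that mean. Genes named outside this rule are said to be so. Alternatives were library totals alone, DESeq2 size factors, other low-count filters, DESeq2 1.42.0, 1 fit with 4 groups, a replicate block, the 15 libraries outside the batch set, that set as a covariate, and leaving out libraries. The tests were checked on simulated counts without a batch adjustment and without a low and a high pair of skin libraries. That check does not cover these 2 limits. With totals of at least 45715309 counts, depth limits only genes near 0, and floors cover counting error only.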

Additional observations from a re-analysis of the deposited data

Results flagged for a closer look

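In a group of 6, Ivl tumour 5 stood apart from the other Ivl tumours for 2 of the 7 genes. Its level was 9.98 CPM for Cma1 and 12 CPM for Tpsb2, each the highest of the 6, with a gap to the next library that exceeded Dixon's limit for that group size. These were 2 of the 28 sets of values examined (7 genes in 4 groups), and chance alone gives about 1 in 20.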

How the results depend on the processing

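The main limits are the 4 skin libraries that do not form 1 group, a batch adjustment whose libraries are not labelled, and depth for Tpsab1, Mcpt1 and Mcpt2 near 0. Of 532 fitted log2 differences of the 7 genes in fits without 1 library, 508 kept direction and side of the threshold, as did 229 of 245 under the other settings chosen at the start and 39 of 56 under those added after the values were seen. The number of the 7 genes called in Ivl tumours against skin was 2, and became 4 with library totals alone (1 higher, 3 lower, without Hdc), 3 with DESeq2 (2 higher, Mcpt4 lower), 5 without skin 1 and 2 (1 higher, 4 lower) and 5 without skin 3 and 4 (all higher). In K5/K14 tumours it was 2, and became 1 without skin 1 and 2 and 7 without skin 3 and 4.

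Directions that turned were as follows, and apart from the choice of libraries the cause was not tested. With library totals alone Ms4a2 was -0.45 in Ivl and -0.19 in K5/K14 tumours against skin, and Hdc 0.01 between Ivl and K5/K14. In the 15 libraries Ms4a2 was 0.39 between Ivl and K5/K14, and Cpa3 was -0.37 and Cma1 -0.49 between K5 and K14. With the batch set as a covariate Hdc was 0.17 between Ivl and K5/K14 and Cma1 -0.05 between K5 and K14. Without skin 1 and 2 Ms4a2 was -0.53 in Ivl and -0.21 in K5/K14 tumours. Without skin 3 and 4 the values in Ivl tumours were 3.87 for Cpa3, 2.42 for Mcpt4, 2.65 for Cma1 and 3.93 for Tpsb2, and in K5/K14 tumours 5.16 for Cpa3, 4.16 for Mcpt4 and 4.22 for Cma1. Over fits without 1 library, Ms4a2 ranged from -0.09 to 0.70 in Ivl tumours against skin. In K5/K14 tumours against skin Cpa3 ranged from -0.82 to 0.28, Mcpt4 from -0.48 to 0.55 and Cma1 from -0.61 to 0.59. Between Ivl and K5/K14 Hdc ranged from -0.32 to 0.18, and between K5 and K14 Cpa3 from -0.37 to 0.68, Cma1 from -0.49 to 0.57 and Hdc from -0.24 to 0.72.

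Replicate numbers did not pair the samples: over 25 pairs with the same number r was -0.508 to 0.41, and 2 of 19 libraries correlated best with their own number. With the replicate block 7700, 18286, 46 and 0 genes were called in the 4 comparisons, against 11515, 19916, 756 and 0 without it, and Tpsb2 was 0.13 in Ivl and Mcpt4 0.08 in K5/K14 tumours against skin, and Hdc -0.05 between K5 and K14. Between Ivl and K5/K14, DESeq2 called 2161 genes, the 15 libraries 130 and the covariate fit 449, and between K5 and K14 DESeq2 called 201 and the 15 libraries 17. In Ivl tumours against skin, library totals gave 18328 calls (2868 higher, 15460 lower), DESeq2 size factors within edgeR 5712 higher and 6828 lower, and the 15 libraries 17563 in all, against 6535 higher and 4980 lower with TMM. In K5/K14 tumours against skin, library totals gave 3239 higher and 20668 lower, against 7440 and 12476.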

Other observations

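Other cell type lists were counted in the same way. Of all genes, 20.4% were called higher and 15.5% lower in Ivl tumours, and 23.2% and 38.9% in K5/K14 tumours. Macrophage and monocyte, fibroblast and melanocyte markers had smaller shares of calls than these in K5/K14 tumours. Of 10 keratinocyte markers 9 rose and 0 fell in Ivl tumours and 10 rose in K5/K14 tumours, with median log2 differences of 2.55 and 2.36. Of 10 skeletal muscle markers 0 were called in Ivl tumours (median -1.94) and 9 fell in K5/K14 tumours (median -5.22). Of 10 adipocyte markers 0 were called in Ivl tumours (median -1.88) and 6 fell in K5/K14 tumours (median -3.41). Of 8 nerve and Schwann cell markers 2 fell in Ivl tumours and 7 in K5/K14 tumours, with medians of -1.37 and -2.20. Of 12 T and NK cell markers 1 fell in Ivl tumours and 7 in K5/K14 tumours (medians -0.90 and -1.38). Of 12 macrophage and monocyte markers 0 were called in Ivl tumours and 2 fell in K5/K14 tumours (medians -0.93 and -0.79). Of 10 fibroblast markers 0 were called in Ivl tumours, and 1 rose and 1 fell in K5/K14 tumours (medians -1.13 and -0.13). Of 10 endothelial markers 1 rose in Ivl tumours, and 3 rose and 1 fell in K5/K14 tumours (medians -0.21 and 0.72). Of 8 melanocyte markers 1 fell in Ivl tumours and 2 in K5/K14 tumours (medians -2.95 and -2.05). These counts depended on the setting. In the 15 libraries outside the batch set 6 and 8 of the melanocyte markers fell in Ivl and K5/K14 tumours, 4 and 9 of the skeletal muscle markers, 5 and 7 of the adipocyte markers, 6 and 7 of the nerve markers and 4 and 2 of the fibroblast markers, 3 and 7 of the T and NK cell markers and 2 and 5 of the macrophage and monocyte markers. With library totals alone 7 and 8 of the melanocyte markers fell, 0 and 9 of the skeletal muscle markers, 2 and 9 of the adipocyte markers, 6 and 8 of the nerve markers, 5 and 2 of the fibroblast markers, 4 and 11 of the T and NK cell markers and 3 and 6 of the macrophage and monocyte markers. Of all 32031 genes, 10463 and 13532 fell in the 15 libraries, and 15460 and 20668 with library totals alone. Whether the difference between the tumour groups in the counts of the lists exceeds the spread was not tested by list.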
